A study of Aedes aegypti with 33 samples.

Results

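Transferrins are iron-binding proteins that many animals secrete into their body fluids. In insects, transferrin 1 circulates in the hemolymph, where it carries iron between tissues and keeps iron from microbes. In Drosophila it moves iron between the gut and the fat body. Which type of transferrin each gene followed here encodes was not established. A blood-feeding mosquito takes in most of its dietary iron as heme, and fetal bovine serum (FBS) brings both heme and bovine transferrin into a culture medium. The transferrin genes followed here were taken by identifier. A list named 3 of them, AAEL015458, AAEL011641 and AAEL015639. AAEL015458 and AAEL011641 are among the 19712 identifiers of the count tables, so 2 of the 3 could be followed, and AAEL015639 was not analysed here. The members were chosen by gene identity, from a list drawn up with results of these data known. Beyond that list, the only rule was the presence of the identifier in the tables.

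The study asked which genes of cultured Aedes aegypti cells change when heme is withdrawn or supplied. RNA of 33 cultures was sequenced in 4 experiments, with 3 biological replicates in each of 11 groups. Aag2 and A20 are continuous cell lines of Ae. aegypti, so each stands for 1 line and not for a tissue or an animal. The first 72 h experiment kept Aag2 cells in Schneider's Drosophila medium and gave them 10 μM heme without FBS, no FBS and no heme (0 μM heme), or 10% FBS (regular growth media). The same 3 conditions were repeated for 72 h with Aag2 cells in Leibovitz's L-15 medium. A20 cells received SF900 II, a serum-free medium, with 10 μM heme or with 0 μM heme, against L-15 medium with FBS, also for 72 h. Serum and basal medium were therefore changed together in A20 cells and cannot be told apart there. The fourth experiment was shorter, at 48 h, and compared Aag2 cells that received 20 μM heme on top of FBS in Schneider's medium with cells that received FBS alone. No group carried a mutation or a knockdown, and the culture media with FBS held penicillin-streptomycin. The labels name another library kit for the 48 h cultures than for the rest.

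Libraries held 22860764 to 38002762 counts. The files were given as counts per identifier, and levels are stated as CPM, the count of a gene relative to the library's total after TMM scaling within an experiment, as mean ± SD (n = 3). A gene was called at an FDR under 0.0001 in edgeR's quasi-likelihood test over all genes of the experiment. In A20 cells, replicate 1 of 10 μM heme stood apart from the others of its group, at a distance of 3.32 to 3.41 on the leading log2 fold change scale, and the 10 μM heme libraries had TMM factors of 0.685 to 0.834 against 1.10 to 1.22 in the other A20 libraries. No table used here pairs these identifiers with cell type markers, so the labelled cell lines were not checked against any.

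Both transferrin genes had reads in all 33 libraries and passed the filter on low counts in every comparison. AAEL015458 was called in at least 2 comparisons of each of the 3 experiments at 72 h, with directions that differed between them. A primer pair for AAEL015458 is listed among the study's RT-qPCR primers, and it is shown because it is the only sequence of a transferrin gene in the material used here.
AAEL015458 forward primer: atgatggagcgatccgatgt
AAEL015458 reverse primer: tacgcgcatttggattcagg
Both primers are 20 bases long, in lower case throughout and written 5′ to 3′.

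In Aag2 cells in Schneider's medium, AAEL015458 was highest with heme, intermediate without heme and serum, and lowest with FBS. It stood at 556, 515 and 597 CPM in 10 μM heme, at 306, 316 and 342 CPM in 0 μM heme, and at 124, 131 and 157 CPM with FBS. No library of one treatment reached into the range of the next. The group means were 556 ± 40.9 CPM in 10 μM heme, 321 ± 18.3 CPM in 0 μM heme and 137 ± 17.5 CPM with FBS. Because these are bulk samples, a change in the share of cells that express a gene and a change in its RNA per cell cannot be told apart.

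Adding 10 μM heme raised AAEL015458 by 0.79 ± 0.083 on the log2 scale over 0 μM heme (SE, FDR = 1.29e-05, edgeR), a 1.73-fold difference. AAEL015458 was the only 1 of the 2 transferrin genes called, in a comparison in which 17.1% of all genes were called. This call was lost without replicate 1 (FDR = 0.000152) or replicate 2 (FDR = 0.000144) of 0 μM heme. Without serum and heme, AAEL015458 stood 1.23 ± 0.084 log2 above FBS (FDR = 4.07e-06, edgeR), or 2.34-fold. Here 1 of the 2 genes was called, against 2.50% of all genes, and the gene ranked 91 from the top among 13171 genes by fold change. The third comparison closed the series, with 10 μM heme 2.02 ± 0.086 log2 above FBS (FDR = 1.64e-08, edgeR), or 4.05-fold, where 1 of 2 was called against 13.8% of all genes. These comparisons share libraries with each other and are not separate evidence.

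AAEL011641 was called in none of the 3 comparisons in Schneider's medium by edgeR's quasi-likelihood test. The exact test and DESeq2 called it for 10 μM heme against 0 μM heme and against FBS. It stood at 81.9, 80.7 and 61.7 CPM in 10 μM heme, at 48.6, 50.4 and 54.7 CPM in 0 μM heme, and at 48.3, 47.9 and 51.7 CPM with FBS. The 10 μM heme libraries lay above all others, and the other 2 groups overlapped. Its difference between 10 μM and 0 μM heme was 0.55 ± 0.094 log2 (FDR = 0.000552, edgeR), and that between 10 μM heme and FBS was 0.60 ± 0.094 log2 (FDR = 0.000325), neither past the threshold. Both depended on replicate 3 of 10 μM heme, the lowest of its group. Without it they were 0.66 log2 (FDR = 6.19e-06, edgeR) and 0.72 log2 (FDR = 4.15e-06), past the threshold. Between 0 μM heme and FBS the gene differed by 0.06 ± 0.094 log2 (FDR = 0.736, edgeR), less than the spread between replicates.

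**Figure D1:**
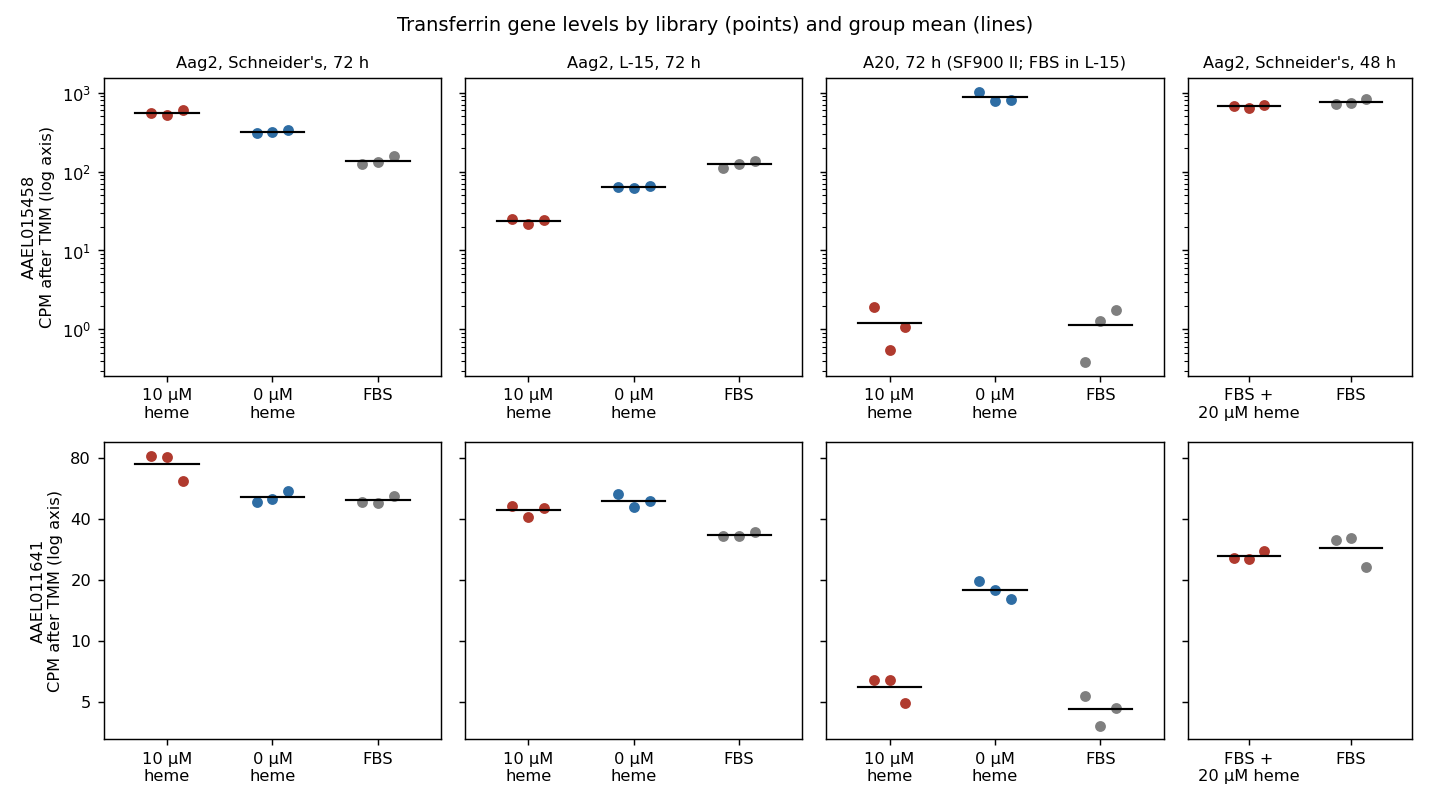
Levels of AAEL015458 (upper row) and AAEL011641 (lower row) in CPM after TMM scaling on log axes, 1 point per library and a line at the mean of each group, with 1 column of panels per experiment. In Schneider's medium at 72 h AAEL015458 is highest in 10 μM heme (556 CPM), in L-15 medium it is lowest there (23.4 CPM), and in A20 cells it is high in 0 μM heme alone (871 CPM).

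In L-15 medium the order of the 3 treatments was turned round for the same gene and the same cell line. AAEL015458 stood at 24.8, 21.3 and 24.1 CPM in 10 μM heme, at 64.0, 62.4 and 65.0 CPM in 0 μM heme, and at 111, 124 and 134 CPM with FBS. The groups were again fully apart, now with the heme group at the bottom. The means were 23.4 ± 1.83 CPM in 10 μM heme, 63.8 ± 1.31 CPM in 0 μM heme and 123 ± 11.5 CPM with FBS.

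Heme lowered AAEL015458 in L-15 medium by 1.44 ± 0.076 log2 relative to 0 μM heme (FDR = 6.95e-08, edgeR), so that its level was 2.72-fold lower. It ranked 204 from the bottom among 13990 genes. Of the 2 transferrin genes 1 was called, against 18% of all genes. Removal of serum alone lowered AAEL015458 by 0.95 ± 0.072 log2 (FDR = 5.21e-07, edgeR), or 1.93-fold, and 10 μM heme without serum lowered it by 2.39 ± 0.077 log2 relative to FBS (FDR = 3.32e-10), or 5.25-fold. In these comparisons 2 of 2 and 1 of 2 transferrin genes were called, against 23.9% and 33.7% of all genes. All 3 calls of AAEL015458 in L-15 medium held with any 1 of the 9 libraries left out.

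AAEL011641 went the other way when serum was removed in L-15 medium. It stood at 46.0, 41.0 and 45.2 CPM in 10 μM heme, at 52.8, 45.6 and 49.0 CPM in 0 μM heme, and at 32.8, 32.8 and 34.4 CPM with FBS. All 6 libraries without serum lay above the 3 with FBS, while the heme and 0 μM groups overlapped. Its rise in 0 μM heme over FBS was 0.56 ± 0.068 log2 (FDR = 2.41e-05, edgeR), or 1.48-fold. That call was lost when replicate 1 or 2 of FBS or replicate 1 or 3 of 0 μM heme was left out, with an FDR of at most 0.000206. In 10 μM heme the difference from FBS was 0.40 ± 0.068 log2 (FDR = 0.000254, edgeR), and the difference between 10 μM and 0 μM heme was −0.16 ± 0.066 log2 (FDR = 0.0626), neither past the threshold. The exact test and DESeq2 called the difference between 10 μM heme and FBS.

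The effect of the medium on these responses was tested directly, as the difference of the response in L-15 medium minus that in Schneider's medium, in a fit of 18 Aag2 libraries. For AAEL015458 the response to serum removal differed by −2.15 ± 0.12 log2 (FDR = 7.19e-11, edgeR) and the response to 10 μM heme by −2.25 ± 0.12 log2 (FDR = 3.21e-10). Of the 2 transferrin genes 1 was called in each, against 22.1% of all genes for serum removal and 9.87% for heme. For AAEL011641 the difference of the heme response was −0.71 ± 0.12 log2 (FDR = 0.000186, edgeR) and that of the serum response was 0.53 ± 0.12 log2 (FDR = 0.00164), both short of the threshold. Without replicate 3 of 10 μM heme in Schneider's medium they were −0.83 log2 (FDR = 2.67e-06) and 0.53 log2 (FDR = 8.11e-05), past it. The 2 media were run as separate experiments, so medium and experiment cannot be told apart.

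With FBS present, AAEL015458 had no called difference between the media in edgeR's quasi-likelihood test, although DESeq2 called it. Its level in L-15 medium was 0.37 ± 0.084 log2 below that in Schneider's medium (FDR = 0.00144, edgeR), not past the threshold. AAEL011641 was lower in L-15 medium by 0.78 ± 0.089 log2 (FDR = 1.18e-06, edgeR), or 1.72-fold, so that 1 of the 2 genes was called against 17.0% of all genes.

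**Figure D2:**
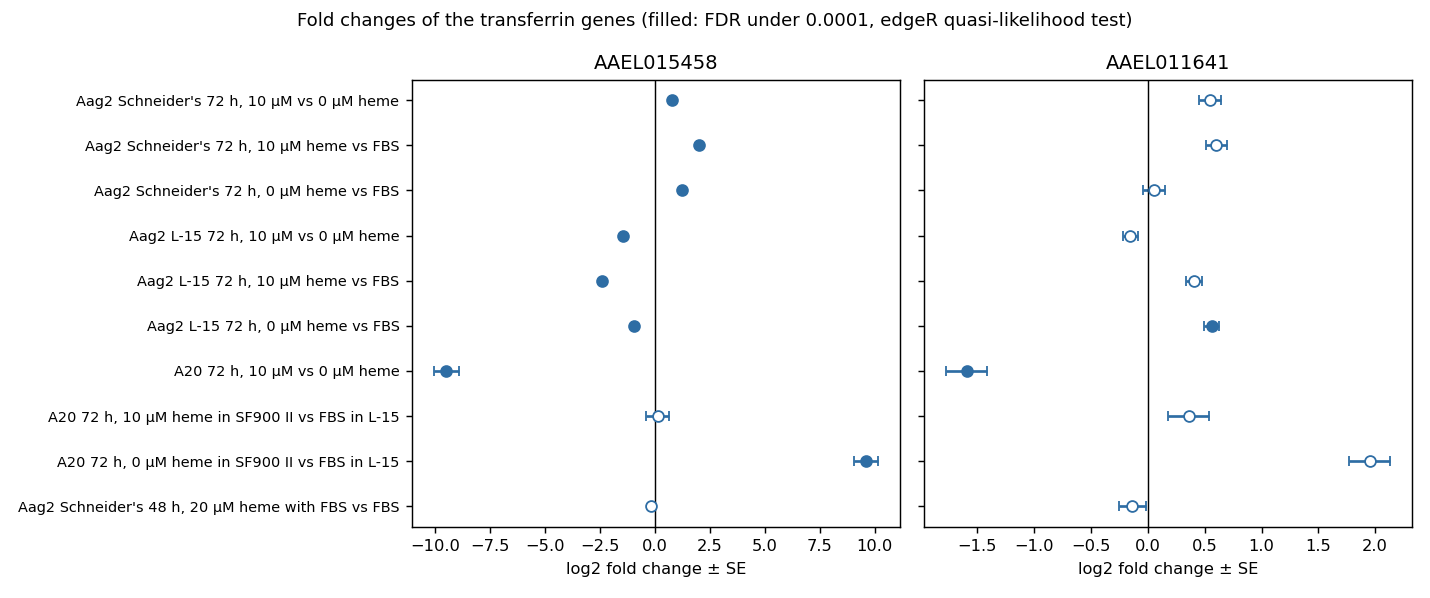
Log2 fold changes with SE bars (hidden where smaller than the point) of AAEL015458 and AAEL011641 in 10 comparisons, each named with its tested condition first. Filled points passed an FDR of 0.0001; the horizontal scales differ between the panels. AAEL015458 lies right of 0 in all comparisons in Schneider's medium at 72 h and left of 0 in all comparisons in L-15 medium, and its values of −9.48 and 9.60 in A20 cells exceed the rest.

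A20 cells gave the widest range of AAEL015458. In 10 μM heme it had 41, 9 and 20 reads in the 3 libraries, or 1.93, 0.547 and 1.08 CPM. In 0 μM heme it had 29513, 22550 and 26538 reads, or 1024, 784 and 806 CPM. With FBS it had 12, 34 and 48 reads, or 0.384, 1.27 and 1.75 CPM. The gene was thus close to the lower end of what these libraries could count in 2 groups and took up 0.0946% to 0.123% of all counts in the third.

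AAEL015458 was lower in 10 μM than in 0 μM heme by 9.48 ± 0.56 log2 (FDR = 2.19e-06, edgeR), a 712-fold difference that ranked 2 from the bottom among 12249 genes. Both media were SF900 II in this comparison. The call held with any 1 of the 9 libraries left out, and without the replicate 1 of 10 μM heme that stood apart the difference was −10.03 log2 (FDR = 3.44e-07). Of the 2 transferrin genes 2 were called, against 18.9% of all genes. The median log2 fold change of all genes was −0.19 here.

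In 0 μM heme AAEL015458 was 9.60 ± 0.55 log2 above FBS (FDR = 1.73e-05, edgeR), a 776-fold difference that ranked 9 from the top among 12249 genes. It was 1 of 53 genes called, 0.433% of all genes, and 1 of the 2 transferrin genes. Without replicate 1 of 10 μM heme, a library outside this comparison that shares its estimate of the spread, 4.54% of all genes were called. The size of the fold rests on the few reads with FBS, and with 1 library left out it lay between 9.16 and 10.06 log2. The call was lost without replicate 2 (FDR = 0.000375) or 3 (FDR = 0.000247) of FBS or replicate 2 (FDR = 0.000156) or 3 (FDR = 0.000146) of 0 μM heme, while the log2 fold change stayed above 9 in each. Between 10 μM heme in SF900 II and FBS in L-15 the libraries overlapped and AAEL015458 differed by 0.12 ± 0.52 log2 (FDR = 0.856, edgeR). Neither transferrin gene was called in that comparison, against 10.8% of all genes, both had an unadjusted p over 0.05, and 0 were called by the exact test and DESeq2.

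AAEL011641 showed the same order of groups in A20 cells on a smaller scale. It stood at 6.41, 6.44 and 4.97 CPM in 10 μM heme, at 19.7, 17.9 and 16.2 CPM in 0 μM heme, and at 5.37, 3.82 and 4.69 CPM with FBS. The 0 μM heme libraries lay above the other 6, and those 6 overlapped between their groups. Relative to 0 μM heme, 10 μM heme lowered it by 1.59 ± 0.18 log2 (FDR = 5.28e-05, edgeR), or 3.02-fold. That call was kept in 1 of the 9 fits with a library left out, the one without replicate 1 of 10 μM heme, and the FDR in the other 8 was at most 0.000427. Its difference between 0 μM heme and FBS was 1.95 ± 0.18 log2 or 3.87-fold (FDR = 0.000174, edgeR), short of the threshold but past it without replicate 1 of 10 μM heme (FDR = 4.37e-05). The exact test and DESeq2 called this difference. Between 10 μM heme and FBS it was 0.36 ± 0.18 log2 (FDR = 0.115, edgeR).

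**Figure D3:**
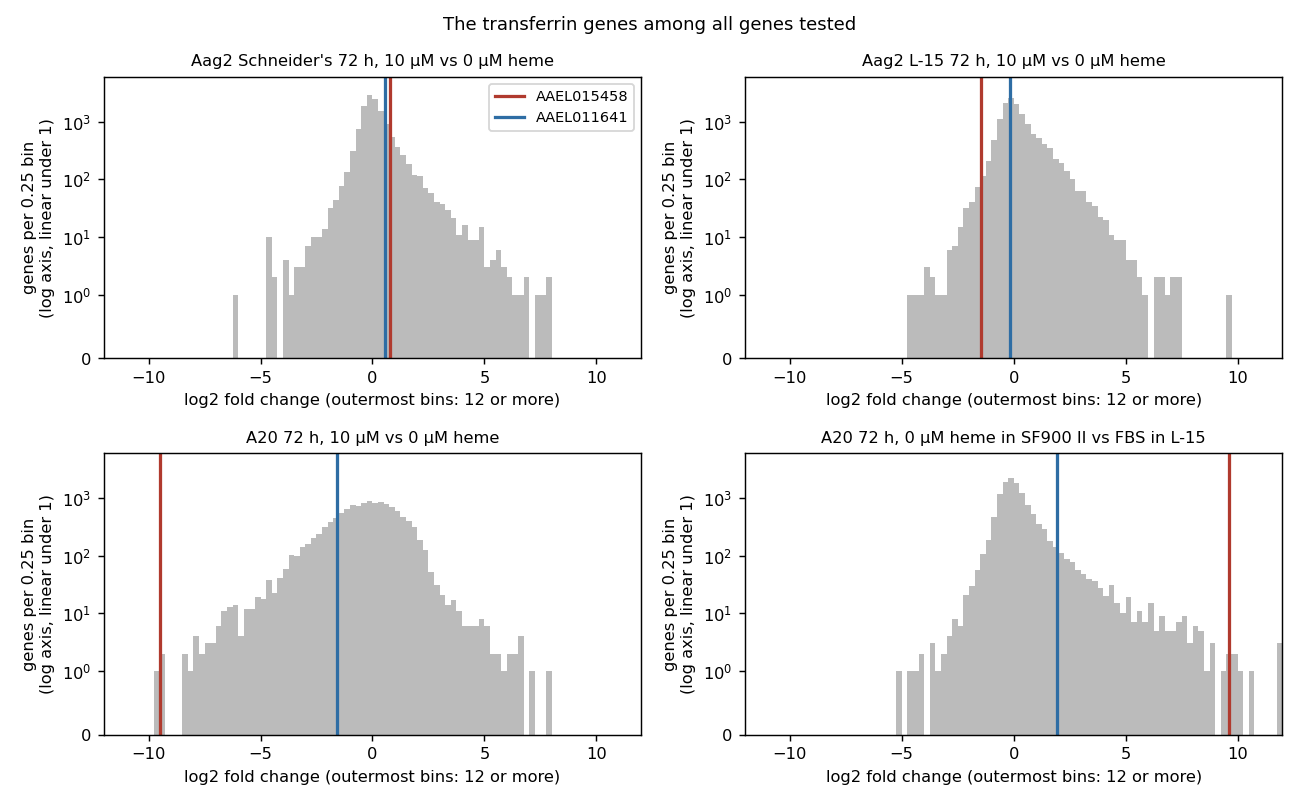
Histograms of the log2 fold changes of all genes tested in 4 comparisons, in bins of 0.25 with the count of genes on a log axis, and vertical lines at AAEL015458 (red) and AAEL011641 (blue). Within the bulk in Schneider's medium (0.79), AAEL015458 lies in the lower tail in L-15 medium (−1.44) and close to an end of the distribution in A20 cells (−9.48 and 9.60).

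The response of the cell lines was compared between A20 cells and Aag2 cells in L-15 medium in a joint fit of 18 libraries. The heme response in A20 minus that in Aag2 was −7.88 ± 0.43 log2 for AAEL015458 (FDR = 5.01e-10, edgeR) and −1.29 ± 0.17 log2 for AAEL011641 (FDR = 8.46e-06), with 2 of 2 called against 26.5% of all genes. Both lines showed lower AAEL015458 with heme than without, and the fall was larger in A20 cells. The median of all genes in this difference was −0.29 log2, and scaling by library size alone moved it to −1.25 log2, with AAEL015458 at −8.84 log2 and AAEL011641 at −2.27 log2. Relative to the median of all genes, AAEL015458 was −7.59 log2 under either scaling, and AAEL011641 was −1.02 log2 with library size alone and −1.002 log2 with TMM. The responses of AAEL015458 to serum removal had opposite signs in the 2 lines. The difference of the serum responses, added after the values were seen, was 10.49 ± 0.44 log2 for AAEL015458 (FDR = 1.39e-10, edgeR) and 1.32 ± 0.17 log2 for AAEL011641 (FDR = 2.43e-05), 2 of 2 against 6.50% of all genes. For AAEL011641 both lines moved upward, A20 cells by more, and this last call was lost in 6 of 18 fits with a library left out, with an FDR of at most 0.000155, and with library size alone (FDR = 0.00012). The medium without serum was SF900 II for A20 cells and L-15 for Aag2 cells, so line and medium cannot be told apart in these differences.

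In L-15 medium with FBS, the condition that the lines shared, both transferrin genes were lower in A20 than in Aag2 cells. AAEL015458 was lower by 6.16 ± 0.34 log2 (FDR = 9.18e-11, edgeR), or 71.7-fold, and AAEL011641 by 2.23 ± 0.13 log2 (FDR = 1.76e-10), or 4.68-fold. The size of the fold of AAEL015458 rests on 12, 34 and 48 reads in A20 cells with FBS. With 1 library left out its log2 fold change lay between −6.63 and −5.73. The 2 of 2 genes called compare with 38.1% of all genes, and both calls held with any 1 of the 18 libraries left out. The lines were run as separate experiments, so line and experiment cannot be told apart.

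Neither gene passed the threshold when heme was added on top of serum for 48 h. AAEL015458 stood at 672, 640 and 706 CPM with 20 μM heme and FBS, against 723, 741 and 823 CPM with FBS. The difference of −0.18 ± 0.055 log2 had an FDR of 0.0483 (edgeR). AAEL011641 stood at 25.6, 25.4 and 27.8 CPM with 20 μM heme and FBS, against 31.4, 32.1 and 23.1 CPM with FBS, overlapping ranges with a difference of −0.14 ± 0.12 log2 (FDR = 0.463, edgeR). None of the 2 genes was called at an FDR of 0.0001, with 1 at an unadjusted p under 0.05 and none called by the exact test or DESeq2, against 0.766% of all genes.

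With FBS alone, AAEL015458 differed between the 48 h and 72 h experiments in Schneider's medium. It was 5.58-fold higher at 48 h than at 72 h, a difference of 2.48 ± 0.085 log2 (FDR = 4.42e-12, edgeR), added after the values were seen. AAEL011641 was lower at 48 h by 0.76 ± 0.12 log2 (FDR = 3.80e-05, edgeR), a call lost without replicate 3 of FBS at 48 h or any 1 of the 3 FBS replicates at 72 h, with an FDR of at most 0.00029. Both genes were called, against 33.7% of all genes. Time, library kit and experiment differ together between these libraries and cannot be told apart.

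Over all 11 groups, scaled together, AAEL015458 was highest in A20 cells in 0 μM heme (1093 ± 166 CPM), followed by the 48 h groups with FBS (724 ± 45.1 CPM) and with 20 μM heme and FBS (634 ± 32.8 CPM). Schneider's medium at 72 h came next with 10 μM heme (527 ± 39.8 CPM), 0 μM heme (314 ± 17.2 CPM) and FBS (132 ± 17.7 CPM). The L-15 groups of Aag2 cells followed with FBS (102 ± 9.54 CPM), 0 μM heme (54.5 ± 1.22 CPM) and 10 μM heme (19.4 ± 1.52 CPM), above A20 cells in 10 μM heme (1.60 ± 0.946 CPM) and with FBS (1.44 ± 0.873 CPM). In this order the last 2 neighbours overlapped and no others did.

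AAEL011641 spanned a narrower range under the same scaling, between 70.8 ± 10.6 CPM in Aag2 cells in Schneider's medium with 10 μM heme and 5.86 ± 0.973 CPM in A20 cells with FBS. Its neighbours overlapped more often. The 0 μM heme (50.0 CPM) and FBS (47.5 CPM) groups in Schneider's medium overlapped, as did the neighbouring groups from Aag2 cells in L-15 medium with FBS (27.5 CPM) through the 48 h groups with FBS (27.4 CPM) and with 20 μM heme and FBS (24.8 CPM) to A20 cells in 0 μM heme (22.5 CPM). A20 cells in 10 μM heme (7.99 CPM) and with FBS overlapped as well.

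The 2 genes were also set against each other within each library, as the ratio of AAEL015458 counts to AAEL011641 counts, which does not depend on how libraries are scaled. The ratio compares libraries and is no statement on which gene has more RNA, since counts were not divided by length. In A20 cells it was 0.0849 to 0.301 in 10 μM heme, 43.8 to 52.0 in 0 μM heme and 0.0714 to 0.372 with FBS. In Aag2 cells in L-15 medium it was 0.521 to 0.539 in 10 μM heme, 1.21 to 1.37 in 0 μM heme and 3.40 to 3.91 with FBS. Without serum and heme the ratio thus lay above FBS in A20 cells and below FBS in Aag2 cells in L-15 medium.

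In Schneider's medium at 72 h the ratio was 6.38 to 9.67 in 10 μM heme, 6.24 to 6.30 in 0 μM heme and 2.56 to 3.04 with FBS. At 48 h it was 25.1 to 26.2 with 20 μM heme and FBS, and 23.0 to 35.7 with FBS. In Schneider's medium the 0 μM heme libraries lay just under those with 10 μM heme, both lay above FBS at 72 h, and the 48 h groups overlapped.

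**Figure D4:**
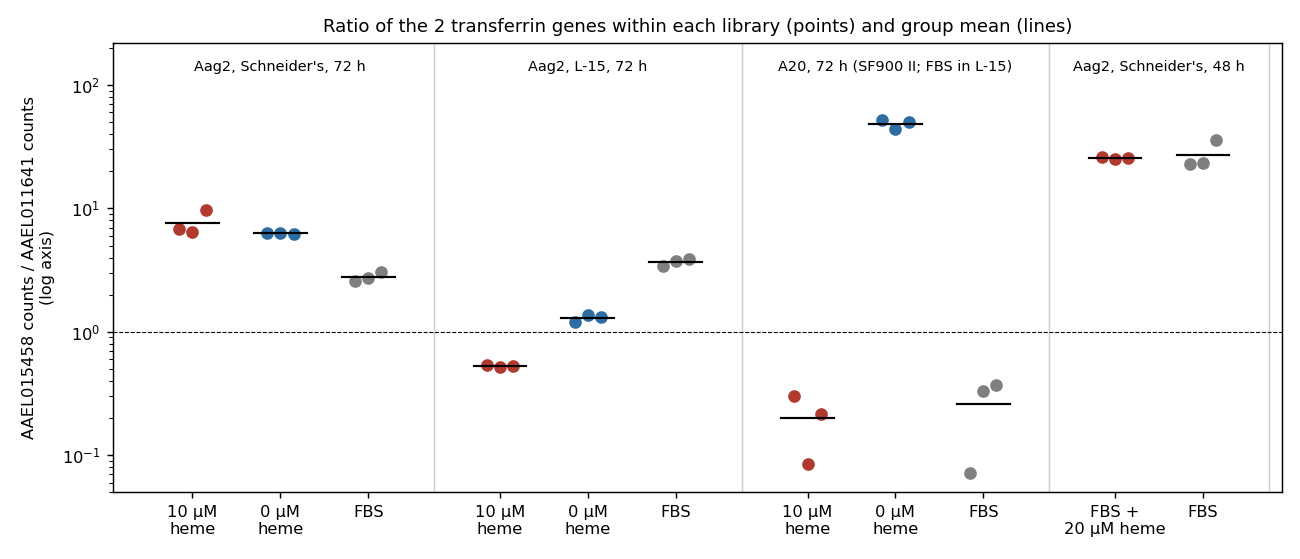
Ratio of AAEL015458 counts to AAEL011641 counts in each of 33 libraries on a log axis, with a line at each group mean and a dashed line at 1. The ratio lies below 1 in 9 libraries, those of A20 cells in 10 μM heme and with FBS and of Aag2 cells in L-15 medium with 10 μM heme, and is highest in A20 cells in 0 μM heme (43.8 to 52.0).

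Across the 11 group means of log2 CPM, Pearson's r between the 2 transferrin genes was 0.71. Among 7409 genes with a mean of at least 10 CPM, those most like AAEL015458 were AAEL011007 (r = 0.96), AAEL003967 (r = 0.95), AAEL007282 (r = 0.94), AAEL017023 (r = 0.94) and AAEL009722 (r = 0.94). Those most like AAEL011641 were AAEL008489 (r = 0.96), AAEL019861 (r = 0.95), AAEL006899 (r = 0.95), AAEL000256 (r = 0.95) and AAEL010337 (r = 0.94). The groups share cell lines, media and experiments, so these values describe the pattern over 11 points. Within an experiment the order could differ. In Aag2 cells in L-15 medium, AAEL011007, AAEL007282 and AAEL009722 fell from FBS to 0 μM to 10 μM heme, as AAEL015458 did. AAEL003967 was highest in 0 μM heme there, and AAEL017023 rose, from 5.57 CPM with FBS to 7.66 and 9.63 CPM. With libraries scaled by total count alone, 3 of the 5 genes most like AAEL015458 and 4 of the 5 most like AAEL011641 were again among the top 5.

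A list of 5 other genes of iron handling was set beside the transferrins. It holds AAEL014762, a ZIP family iron transporter, and AAEL013756, a zinc/iron transporter. It also holds AAEL007385 and AAEL007383, listed as ferritin heavy and light chain, and AAEL008136, listed as heme oxygenase. No gene table was at hand to check the listed names or to complete the list. AAEL014762 was listed because the paper names it, among genes that changed with heme in these data. Its calls are therefore not independent of how the list was made. In Schneider's medium, edgeR's quasi-likelihood test of 10 μM against 0 μM heme called 3 of the 5 higher and 0 lower, against 17.1% of all genes called, with a list median of 3.40 log2 against 0.03 over all genes. The exact test called 4 higher and DESeq2 all 5. The 3 were AAEL007383 (4.36 log2, FDR = 7.40e-08, edgeR), AAEL014762 (3.70 log2, FDR = 1.06e-08) and AAEL007385 (3.40 log2, FDR = 4.65e-09).

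In L-15 medium the same 3 genes rose with heme, AAEL007383 by 3.45 log2 (FDR = 8.64e-10, edgeR), AAEL007385 by 2.84 log2 (FDR = 7.38e-11) and AAEL014762 by 1.56 log2 (FDR = 4.27e-09), 3 of 5 against 18% of all genes, with a list median of 1.56 log2 against 0.02 over all genes. AAEL015458 thus rose with these genes in Schneider's medium, while in L-15 medium it fell where they rose. At 48 h with 20 μM heme and FBS the 3 were higher again, AAEL007383 by 3.50 log2 (FDR = 6.89e-07), AAEL007385 by 2.39 log2 (FDR = 3.94e-06) and AAEL014762 by 1.87 log2 (FDR = 2.83e-07), where neither transferrin was called. These were 3 of the 5, against 0.766% of all genes. The paper already reports the change of AAEL014762 in this experiment, so its call here was known when the list was made.

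In A20 cells 0 of the 5 genes were called by edgeR's quasi-likelihood test in each of the 3 comparisons, and 0 by the exact test, against 18.9% of all genes for 10 μM against 0 μM heme, 10.8% for 10 μM heme against FBS and 0.433% for 0 μM heme against FBS. At an unadjusted p under 0.05 there were 1 for 10 μM against 0 μM heme, 3 for 10 μM heme against FBS and 4 for 0 μM heme against FBS, and DESeq2 called 1 in the last of these. For 10 μM against 0 μM heme the list median was −0.28 log2 against −0.19 over all genes. AAEL014762 had −1.25 log2 there (FDR = 0.0492), AAEL007385 had −0.63 log2 (FDR = 0.134) and AAEL007383 had −0.12 log2 (FDR = 0.818).

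The counts of 10 μM against 0 μM heme and of 0 μM heme against FBS changed without the replicate 1 of 10 μM heme that stood apart. It was the highest of its group for AAEL007385, at 1374 CPM against 510 and 473 CPM in the other replicates, for AAEL007383, at 1716 CPM against 531 and 481 CPM, and for AAEL014762, at 156 CPM against 38.5 and 32.3 CPM. A fit without it, added after the values were seen, called 2 of the 5 lower in 10 μM than in 0 μM heme, AAEL014762 by 2.34 ± 0.10 log2 (FDR = 1.15e-07, edgeR) and AAEL007385 by 1.30 ± 0.072 log2 (FDR = 3.89e-07), against 33.6% of all genes, with AAEL007383 at −0.96 ± 0.16 log2 (FDR = 0.000473). The same fit called 3 of the 5 higher in 0 μM heme than with FBS, AAEL014762 by 1.92 log2 (FDR = 1.90e-06), AAEL007383 by 1.67 log2 (FDR = 4.02e-05) and AAEL007385 by 1.60 log2 (FDR = 9.87e-07), against 4.54% of all genes. For 10 μM heme against FBS it again called 0 of the 5, against 26.1% of all genes, with the lowest FDR at 0.00252.

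When serum was removed from Aag2 cells, 0 of 5 were called in Schneider's medium by edgeR, the exact test and DESeq2 (4 of 5 at an unadjusted p under 0.05), against 2.50% of all genes, with a median of −0.30 log2 against −0.01 over all genes. In L-15 medium 3 of 5 were higher, against 23.9% of all genes called, with a median of 0.79 log2 against 0.02. Relative to FBS, 3 of 5 were higher in 10 μM heme in Schneider's medium by edgeR and the exact test and 4 by DESeq2, against 13.8% of all genes called by edgeR. In L-15 medium 4 of 5 were higher by each of these tests, against 33.7% of all genes.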

How the data were processed

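RNA of Aag2 and A20 cells was sequenced as paired ends. Per the paper's methods and the labels, the authors aligned reads to AaegL5 with HISAT2 2.1.0, removed reads under a mapping quality with SAMtools and counted the rest per transcript with bedtools 2.19.1; the use of strand is not given in the sources used here. Deposited values are raw whole-number read counts for 19712 identifiers in each of 4 tables, with no normalization. Reads shared with a near-identical copy could be split or lost.

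Tests were run in edgeR 4.0.16 (R 4.3.3), with DESeq2 1.42.0 as an alternative. Low counts were dropped with filterByExpr, and genes were scaled by TMM and fitted by quasi-likelihood with all libraries of an experiment, with Benjamini-Hochberg adjustment over all genes kept and an FDR of 0.0001. SE is the log2 fold change divided by the square root of F. Differences of responses, and comparisons across experiments, came from joint fits. Named genes are the transferrins, up to 3 called genes of the iron list with the smallest FDR, and the 5 genes nearest in Pearson's r of group means (prior count 2); iron genes not called in A20 cells were named after their values were seen. Members, lists and tests were chosen with earlier results of these data known. The steps were tested on simulated data. Alternatives were the exact test, DESeq2, RLE, library size alone, no filter, over 1 CPM in 3 libraries, a replicate block, the 2 groups alone, an FDR of 0.05 and each library left out; 2 comparisons were added after values were seen.

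Same-numbered samples of different groups did not deviate together (correlations of −0.0435 to 0.125, over 0.1 in 1 pair), so numbers were not taken as pairs. With 3 against 3, an exact permutation test cannot go below p = 0.1. Gene names are those of the lists and sources used here, with no gene table to check them. Gene lengths, locations and protein or promoter sequences were not used.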

Additional observations from a re-analysis of the deposited data

Results flagged for a closer look

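The 6 results below are differences of the same response between media or cell lines, each past an FDR of 0.0001 in edgeR's quasi-likelihood test of the difference itself. For AAEL015458, the response to serum removal was −2.15 log2 in Aag2 cells in L-15 medium minus that in Schneider's medium, where the single responses had opposite signs. Its response to 10 μM heme differed by −2.25 log2 between these media, again with opposite signs.

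Between cell lines, the heme response of A20 cells minus that of Aag2 cells in L-15 medium was −7.88 log2 for AAEL015458 and −1.29 log2 for AAEL011641. The response to serum removal, A20 minus Aag2 in L-15 medium, was 10.49 log2 for AAEL015458 and 1.32 log2 for AAEL011641, comparisons added after the values were seen. Beside the heme values stands the median of all genes in the same difference, −0.29 log2. With library size alone the heme values were −8.84 log2 for AAEL015458 and −2.27 log2 for AAEL011641, with that median at −1.25 log2. The part of medium, experiment and library in these differences was not tested.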

How the results depend on the processing

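No called direction turned round under any alternative run. Outside the fits with a library left out, AAEL015458 fell short in 1 of its 144 alternatives and passed anew in 3, and AAEL011641 fell short in 6 of 144 and passed anew in 20.

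The number of transferrin genes called changed as follows. With DESeq2 and with an FDR of 0.05 it was 2 instead of 1 for 10 μM heme against FBS in both Aag2 media, 10 μM against 0 μM heme in Schneider's medium, 0 μM heme against FBS in A20 cells, the heme response between media, and L-15 against Schneider's medium with FBS. The exact test gave 2 in the first 4 of these, those of 10 μM heme against FBS in both media, of 10 μM against 0 μM heme in Schneider's medium and of A20 cells. In all of these the gene gained was AAEL011641, except for L-15 against Schneider's medium with FBS, where it was AAEL015458. An FDR of 0.05 alone gave 2 for the serum response between media and 1 instead of 0 at 48 h. Without a filter it was 2 for 10 μM heme against FBS in Schneider's medium, 0 μM heme against FBS in A20 cells and the heme response between media. With library size alone it was 2 for 10 μM heme against FBS in L-15 medium and for the serum response between media, and 1 instead of 2 for the serum response between lines.

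With the 2 groups alone, 1 gene instead of 2 was called for 10 μM against 0 μM heme in A20 cells and for 48 h against 72 h. With the replicate block, which the data do not back as a pairing, 1 was called in those 2 comparisons and 0 instead of 1 for 0 μM heme against FBS in A20 cells and for L-15 against Schneider's medium with FBS; the calls lost were AAEL015458 in 0 μM heme against FBS (FDR = 0.00019) and AAEL011641 in 10 μM against 0 μM heme in A20 cells (FDR = 0.000225), between the media (FDR = 0.000325) and between 48 h and 72 h (FDR = 0.00448). The cause was not tested.

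With 1 library left out, the number ranged from 0 to 2 for 10 μM against 0 μM heme in Schneider's medium and for 0 μM heme against FBS in A20 cells, and from 1 to 2 for 10 μM heme against FBS in Schneider's medium, 0 μM heme against FBS in L-15 medium, 10 μM against 0 μM heme in A20 cells, the serum and heme responses between media, the serum response between lines and 48 h against 72 h. Where a group is left with 2 libraries, they are assumed to vary like the others.

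Scaling by library size alone shifted the median of all genes by −0.69 log2 for 10 μM against 0 μM heme in A20 cells, where AAEL015458 was −10.15 log2 and AAEL011641 −2.29 log2. Relative to the median they were −9.26 and −1.40 log2, against −9.29 and −1.40 log2 with TMM. Of all genes called there, 16.5% were higher with library size alone and 51.7% with TMM. For 10 μM heme against FBS in A20 cells both genes changed sign under it (AAEL015458 −0.43 log2, AAEL011641 −0.22 log2), and neither was called. In L-15 medium its shift was 0.39 log2 for 10 μM heme against FBS, with 74.7% of called genes higher against 45.9%; in Schneider's medium 67.7% against 44.1% were higher for 10 μM against 0 μM heme.

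The share of all genes called in 0 μM heme against FBS in A20 cells was 0.433%, and 9.21% with the exact test, 12.5% with DESeq2, 29.5% at an FDR of 0.05, 1.59% with the 2 groups alone, 0.873% without a filter, 0.171% with library size alone and 0.106% with the block. For 10 μM against 0 μM heme in A20 cells it was 18.9%, and 41.2% with the exact test, 43.7% with DESeq2, 1.53% with the 2 groups alone and 4.42% with the block. At 48 h it was 0.766%, and 5.46%, 9.23% and 0.175% with the exact test, DESeq2 and the block. Depth limits AAEL015458 in A20 cells with heme or FBS, where 9 to 48 reads set the size of the fold.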
